A study of Mus musculus with 4 samples.

Results

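Iron-sulfur clusters are small inorganic cofactors, and the 34 genes described here either build them or encode proteins that carry them. Of the 34, 20 were taken as assembly factors and 14 as client proteins, by a list of symbols. A gene was measured where a probe set of the Affymetrix mouse array is annotated with that symbol and no other, and its brightest such probe set stands for it. That held for 32 genes (18 assembly factors and 14 clients) of 18193 genes on the array. Fdx2 and Fdxr were not analysed here. All 32 passed the filter on dim probe sets, and all were above the array's own background in all 4 pools. Their lowest signal was 15.7 arbitrary units, in Dpyd.

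In mitochondria, a cysteine desulfurase provides sulfur, a ferredoxin provides electrons, and both meet on a scaffold protein where the cluster forms. A chaperone pair and a glutaredoxin then hand the cluster on, and late-acting carriers shape it for particular enzymes. A separate cytosolic machinery serves proteins of the cytosol and nucleus, among them DNA polymerases, DNA helicases and a ribosome recycling factor. The pathway needs iron for every cluster it makes.

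The RNA came from whole embryonic kidneys, taken at day 15 of gestation (E15) in the C57BL/6 strain. Dams were 8 weeks old when assigned to a feed of 220 ppm iron (control) or of 2 to 6 ppm (iron-deficient). They ate it for 3 weeks before gestation and on through pregnancy. From each diet came 2 pools, each with 16 kidneys and 1 array. All groups share strain, stage and tissue, the sires were C57BL/6 too, and the labels enter every sample as female. Whether pools had different litters is not in the labels, so p-values rest only on how far these pools differed, which may be technical spread. Precision is limited throughout by having 2 arrays per diet. Values are given for pool 1 and then pool 2 of each diet.

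The pools also differed in other ways. One array, that of iron-deficient pool 1, was unlike the rest: over all tested probe sets its log2 signals correlated at 0.883 to 0.913 with the other arrays, which reached 0.97 to 0.978 among themselves. The 18S ribosomal RNA control nearest the 5′ end read 2144.5 there and 243 to 291.9 elsewhere. The 3′ to 5′ ratio of the actin control probe sets was 1.64 on that array and 1.38 to 1.49 on the others, and for Gapdh it was 1.43 against 1.26 to 1.36. The Y-linked gene Eif2s3y read 594.5 and 600.0 under the control diet and 253.6 and 20.8 under iron deficiency, where the labels say female, and Xist read 926.6, 167.8, 3427.3 and 1543.3 in the same order. Of 10 kidney markers 8 were analysed, and their summed signal was 5271 to 5476 in control and 6305 to 6333 in iron-deficient pools. Among them Six2, Wt1 and Foxd1 were higher and Nphs1 was lower in both iron-deficient pools, and the others overlapped between diets. The sum of 8 proximal tubule markers was 3754 to 3920 in control pools and 435 to 1084 in iron-deficient pools, with 8 of 8 lower in both pools. That of 7 erythroid markers was 2746 to 3021 and 6128 to 8656 (5 higher, and Alas2 lower), and that of 7 granulocyte markers 404.5 to 427.4 and 1692 to 2422 (6 of 6 tested higher). The sum of 5 liver markers was 1195 to 1345 under the control diet, 182.3 in iron-deficient pool 1 and 2497 in pool 2. In such bulk RNA, fewer cells of a type and less RNA per cell cannot be told apart. The part of these differences in the values below was not tested. A value given without iron-deficient pool 1 leaves out that array alone, and the marker and Eif2s3y differences of pool 2 stay in it.

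The comparison of diets asked whether kidneys of embryos carried by iron-deficient dams differed in transcripts of iron-sulfur genes. No member passed the test. Signals of most members were low in iron-deficient pool 1 and close to the controls in iron-deficient pool 2, so that the diets overlapped for 25 of 32. Both iron-deficient pools were below both control pools for Iscu, Glrx5, Nubp2, Lias, Ddx11 and Cisd2, and above both for Mms19 only. With median centring of the arrays, none of these 6 was lower in both pools, Brip1 was, and Mms19 was still higher. Before centring it is 7 of 32 (21.9%), where the pools of the diets did not overlap for 36.7% of all 27022 probe sets tested and for 39% of genes at 1 probe set each. In the lower direction it is 6 of 32, beside 25% of all probe sets and 26% at 1 per gene, and in the higher direction 1 of 32, beside 11.8% and 13.1%. These shares of the members were not above the background, which after centring was 25.8%.

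By limma, 0 of 32 members passed an adjusted p of 0.05 over all probe sets, and the background was 0%. At an unadjusted p under 0.05 lay 0 of 32 members, against 3.96% of all probe sets. The smallest p of a member by its brightest probe set was 0.0885, for Nubp2. Among all 56 tested probe sets of these genes, 2 dimmer ones had an unadjusted limma p under 0.05 (3.57%, beside the 3.96%), 1 each of Nubp1 and Bola3. Adjusted p ran from 0.852 to 0.994. The median log2 difference, iron-deficient minus control, was -0.36 over the 18 assembly factors and -0.23 over the 14 clients. The median of all probe sets tested was -0.10, and at 1 per gene it was -0.14. Of the 32 differences 27 were negative and 5 positive, where 58.4% of all probe sets and 62% at 1 per gene were negative. Without iron-deficient pool 1 the split was 18 and 14. Standard errors of single members were 0.31 to 0.71, and every 95% interval of a brightest probe set held 0, so these data do not show that any member stayed the same either.

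**Figure D1:**
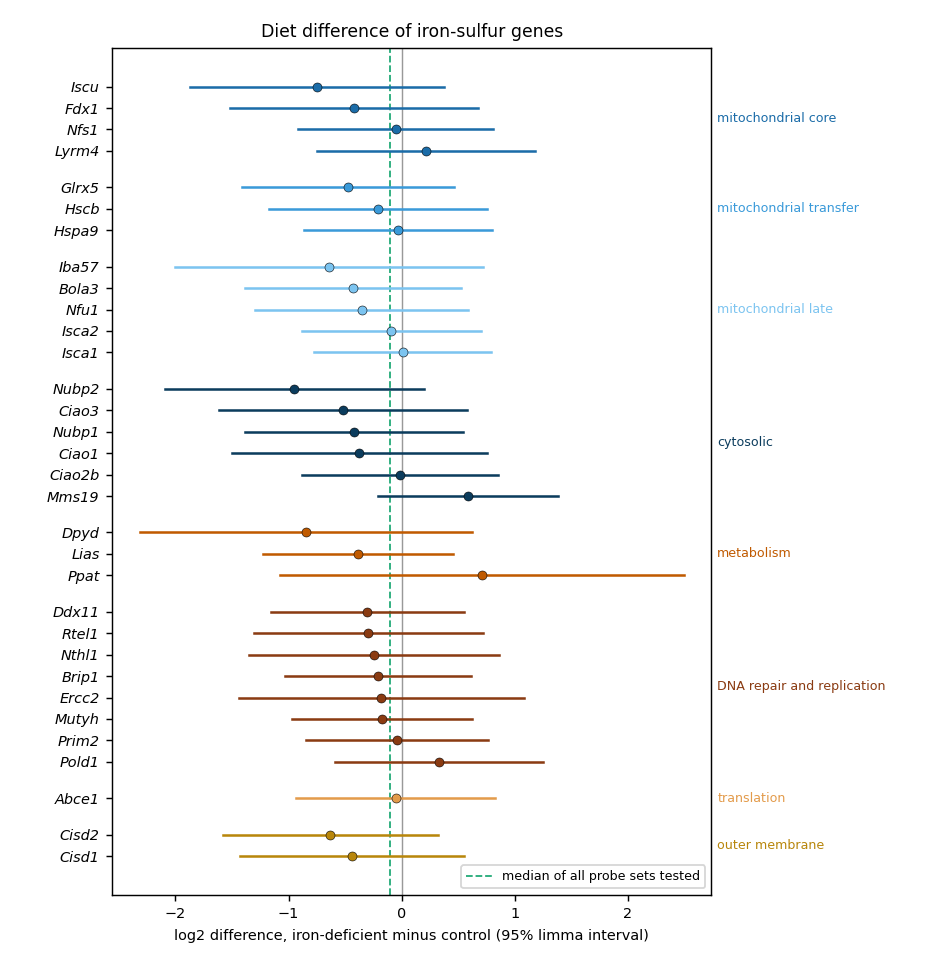
Log2 difference in signal, iron-deficient minus control, for the 32 members grouped by role (points, with 95% limma intervals from 2 pools per diet; the dashed line is the median of all probe sets tested, -0.10). All 32 intervals cross 0, and the points run from -0.95 for Nubp2 to 0.71 for Ppat.

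The pools of a diet differed by a median of 0.16 log2 units in control and 0.71 in iron-deficient kidneys over the 32 members, and the iron-deficient gap was the larger one for 27 of them. Over all probe sets tested these medians were 0.20 and 0.62, so a wider iron-deficient gap was not particular to the members. Iron-deficient pool 1 was below both control pools for 24 of 32 members (52.6% of all probe sets, 60.2% at 1 probe set per gene). It was above both for 3, namely Lyrm4, Mms19 and Ppat (34.9% of all probe sets, 3911 of 12997 at 1 per gene). Iron-deficient pool 2 was below both control pools for 10 of 32 (40.5% of all probe sets, 38.4% at 1 per gene). It was above both for 10 (31.3% of all probe sets, 4924 of 12997 at 1 per gene). The median member lay -0.64 log2 units from the control mean in pool 1 and -0.02 in pool 2. Beside these stand -0.18 and -0.03 over all probe sets, and -0.31 and 0.0033 at 1 probe set per gene. Pool 1 was the lower of the iron-deficient pools for 27 of 32 (56.4% of all probe sets, 8503 of 12997 at 1 per gene). For 8 members, pool 1 was below and pool 2 above both controls. The share of all probe sets was not counted for this pattern or for the larger iron-deficient gap. Both of the medians given above rest on pool 1: without it, that of the assembly factors was 0.01 and that of the clients -0.06, and without pool 2 they were -0.73 and -0.57.

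**Figure D2:**
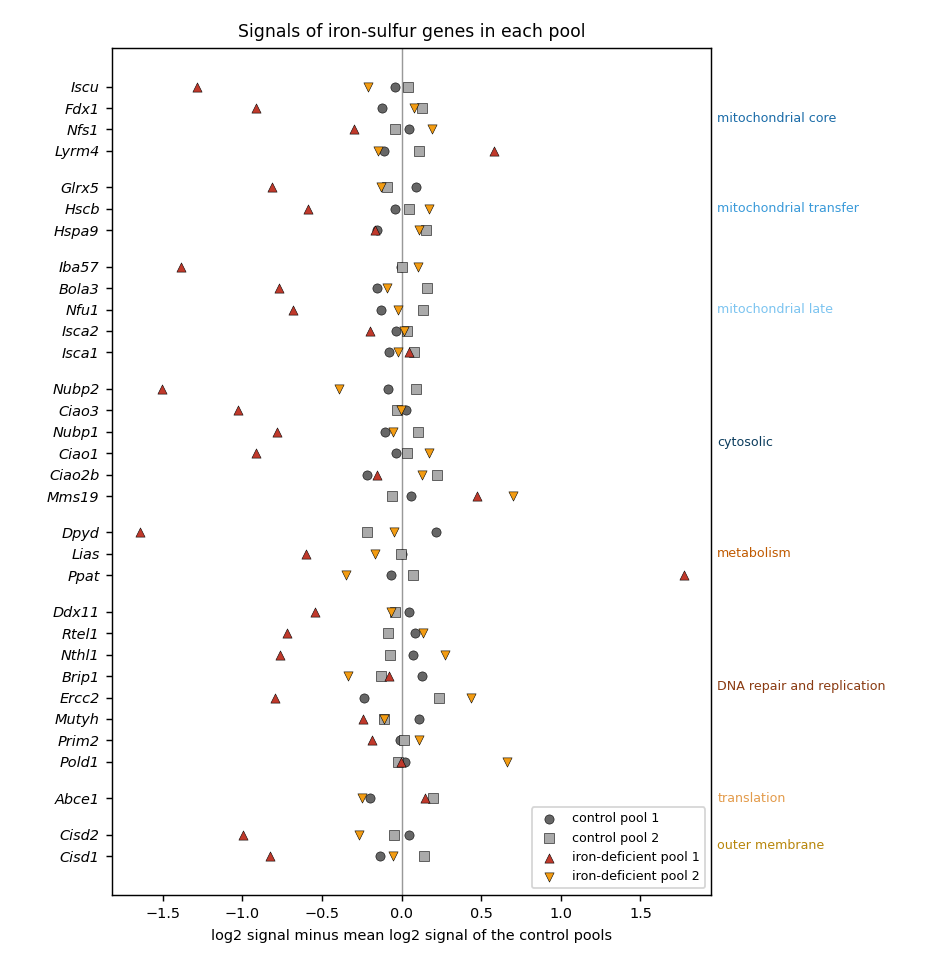
Signal of each member in each of the 4 pools, as log2 signal minus the mean log2 signal of the control pools (grey, control pools 1 and 2; red upward triangles, iron-deficient pool 1; orange downward triangles, iron-deficient pool 2). Iron-deficient pool 1 lies below both control pools for 24 of 32 members, while pool 2 lies on either side of them.

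Among the core assembly factors of mitochondria, the scaffold Iscu had the largest difference. Its signals were 1333.9 and 1409.9 under the control diet and 561.5 and 1185.5 under iron deficiency. Both iron-deficient pools were below both controls, but pool 2 lay close to them, and the log2 difference was -0.75 ± 0.45 (SE, n = 2 per diet; limma adjusted p = 0.852). It was -0.21 without iron-deficient pool 1. Nfs1, the cysteine desulfurase that supplies sulfur, read 208.9 and 196.4 under the control diet and 164.6 and 231.6 under iron deficiency, 1 pool on each side of the controls. A dimmer probe set of Nfs1 was below both controls in both pools, at 54.5 and 51.5 against 60.8 and 58.1. Lyrm4, the small protein that stabilises Nfs1, read 2337.5 and 2715.5 under the control diet. Under iron deficiency it read 3773.3 and 2268.3, so here pool 1 was the high one (0.22 ± 0.39). Fdx1, a ferredoxin that passes electrons and is also used in steroid synthesis, read 419.2 and 499.1 under the control diet and 242.2 and 481.6 under iron deficiency, with pool 2 inside the control range. Adrenal cortex markers, whose cells are rich in this ferredoxin, were dim. Their sum over 7 genes was 163.4 to 196.8 in control and 149.5 to 206.5 in iron-deficient pools. Star, Cyp11a1, Cyp21a1 and Mc2r were above background in all 4 pools, Nr5a1 in 1, and Cyp11b1 and Hsd3b1 in none.

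In the transfer step, Hscb and Hspa9, the co-chaperone and the mitochondrial chaperone that take the cluster off the scaffold, overlapped between diets. Hspa9 read 2381.4 and 2943.3 under the control diet and 2353.2 and 2850.8 under iron deficiency (-0.03 ± 0.33), with a 95% interval from -0.86 to 0.80. Its next brightest probe set was above both controls in both iron-deficient pools (1784.6 and 2090.0 against 1624.1 and 1699.9). Hscb read 299.1 and 317.7 against 204.9 and 347.8, with pool 1 below and pool 2 above the controls (-0.21 ± 0.39). Glrx5, the glutaredoxin that carries the cluster onward, read 1076.5 and 948.5 under the control diet and 575.6 and 922.1 under iron deficiency. Both were below the controls, pool 2 by a small margin (-0.47 ± 0.37, or -0.13 without iron-deficient pool 1).

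By its brightest probe set, none of the 5 late-acting mitochondrial factors separated the diets. Isca1 and Isca2, partner proteins that make the larger cluster form, differed by 0.01 ± 0.31 and -0.09 ± 0.32, and the 95% interval for Isca1 ran from -0.77 to 0.79. Isca1 read 1194.3 and 1335.3 under the control diet and 1301.4 and 1244.0 under iron deficiency, both inside the control range. Iba57, which works with them, read 73.1 and 73.3 under the control diet and 28.0 and 78.6 under iron deficiency. A dimmer probe set of Iba57 gave 55.7 and 48.2 against 25.3 and 47.1. In both probe sets pool 1 was far below the controls, and pool 2 was just above them in the brighter and just below them in the dimmer one. The carriers Nfu1 and Bola3, which serve lipoate synthesis and the respiratory chain, differed by -0.35 ± 0.38 and -0.43 ± 0.38. Nfu1 read 2269.2 and 2728.2 against 1547.1 and 2446.5, and Bola3 460.9 and 572.2 against 301.5 and 482.1. Pool 2 lay inside the control range for both. A dimmer probe set of Bola3 was below both controls in both pools, at 41.9 and 67.2 against 93.2 and 115.6 (-0.97 ± 0.38).

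The cytosolic machinery held the lowest and the highest assembly factor. Nubp2, which forms a scaffold with Nubp1, read 475.8 and 537.8 under the control diet and 178.4 and 385.4 under iron deficiency. Both were below the controls, with a log2 difference of -0.95 ± 0.46 (limma adjusted p = 0.852; 95% interval from -2.10 to 0.20). Another probe set of the gene gave 209.5 and 201.3 against 74.0 and 153.8, a difference of -0.94. Without iron-deficient pool 1 the difference of the first was -0.39. Nubp1 read 402.5 and 465.7 against 251.4 and 417.1, with pool 2 inside the control range (-0.42 ± 0.38). Its 2 dimmer probe sets were below the controls in both pools, at 147.0 and 168.3 against 209.6 and 228.5 and at 29.0 and 29.5 against 52.8 and 49.2.

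Mms19, which brings finished clusters to DNA polymerases and helicases, was the only member above both controls in both pools. It read 489.3 and 451.6 under the control diet and 653.4 and 764.4 under iron deficiency (0.59 ± 0.32; limma adjusted p = 0.852; 95% interval from -0.21 to 1.38). The difference was 0.70 without iron-deficient pool 1 and 0.48 without pool 2. A dimmer probe set overlapped between diets, at 111.2 and 96.7 against 88.3 and 144.5 (0.12). The other parts of the targeting complex were not above both controls in both pools, and their contrast with Mms19 was not tested. Ciao1 read 515.1 and 539.4 against 279.2 and 592.5 (-0.37 ± 0.45), and Ciao2b 1008.0 and 1367.7 against 1054.5 and 1281.5 (-0.01 ± 0.35). Ciao3, which links the scaffold to that complex, read 316.6 and 305.0 under the control diet and 152.1 and 310.4 under iron deficiency (-0.52 ± 0.44). For each of these 3 genes the diets overlapped.

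The stretches before the starts of Mms19 and Nubp2 are shown because these genes had the highest and the lowest difference among the assembly factors. They come from RefSeq promoters on build GRCm38.p6 (mouse, all on the minus strand, 250 bases up to the start, written 5′ to 3′). Capitals mark ACGTG or GCGTG, the core that hypoxia-inducible factors bind, and a form of the site of nuclear respiratory factor 1 (NRF1), namely GCGC, any base and then TGCGC, with both strands searched. RefSeq lists several close starts for each gene, of which 1 is given for Mms19 and 2 that do not overlap for Nubp2. For Nubp2, the words first and other only tell these stretches apart, and a listed start that is not shown lies upstream of both.
Mms19, chr19:41981131-41981380: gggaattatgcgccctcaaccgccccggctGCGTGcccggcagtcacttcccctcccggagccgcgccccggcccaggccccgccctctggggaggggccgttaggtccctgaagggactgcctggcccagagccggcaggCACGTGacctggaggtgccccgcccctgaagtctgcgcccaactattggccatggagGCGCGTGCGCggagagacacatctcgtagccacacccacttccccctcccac
Nubp2, first start, chr17:24886329-24886578: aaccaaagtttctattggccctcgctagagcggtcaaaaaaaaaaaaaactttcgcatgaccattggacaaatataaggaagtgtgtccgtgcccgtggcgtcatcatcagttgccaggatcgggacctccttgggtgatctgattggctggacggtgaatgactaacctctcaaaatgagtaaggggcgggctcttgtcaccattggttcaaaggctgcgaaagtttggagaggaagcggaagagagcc
Nubp2, other start, chr17:24885942-24886191: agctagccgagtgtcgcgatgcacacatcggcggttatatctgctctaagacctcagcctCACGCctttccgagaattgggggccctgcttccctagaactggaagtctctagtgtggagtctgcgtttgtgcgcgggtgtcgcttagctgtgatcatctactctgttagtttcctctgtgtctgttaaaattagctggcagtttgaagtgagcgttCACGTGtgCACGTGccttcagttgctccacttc
The Mms19 stretch held 1 NRF1 match and 4 matches to the hypoxia core, of which 2 are the strands of 1 palindrome and 1 lies inside the NRF1 match. The Nubp2 stretches held 0 and 5 core matches, of which 4 are the strands of palindromes. In windows of 300 bases, which add the 50 after the start, 29 of the 34 genes were matched by symbol, with 35 starts. The NRF1 form was in 8 of 35 (22.9%), against 4.6% of all 32851 windows. A hypoxia core was in 26 of 35 (74.3%), against 43.8%. These counts are of windows and not of genes. The windows of Mms19 overlap almost fully, so its NRF1 match and cores are counted more than once. Windows of Bola3 and of Nubp2 overlap too. The windows of these genes held a median of 24 CG dinucleotides, where all windows held 7, and each of these motifs holds CG itself. A match is a run of letters and says nothing of a factor bound there.

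Clients of metabolism included the members with the widest spread. Lias, which makes lipoate, the swinging arm of the pyruvate and oxoglutarate dehydrogenases, read 877.0 and 874.3 under the control diet and 577.8 and 780.0 under iron deficiency. Both iron-deficient pools were lower, as in another probe set (586.6 and 577.2 against 376.1 and 440.0), and the differences were -0.38 ± 0.33 and -0.52. Ppat, which starts purine synthesis, read 770.2 and 847.3 under the control diet and 2762.9 and 632.8 under iron deficiency. Pool 1 was high and pool 2 low, in another probe set too (1872.1 and 512.9 against 778.9 and 686.6). The difference of 0.71 ± 0.71 turned to -0.35 without iron-deficient pool 1. Dpyd, which starts the breakdown of pyrimidines, was the dimmest member, at 57.1 and 42.3 under the control diet and 15.7 and 47.5 under iron deficiency (-0.85 ± 0.59), with pool 2 inside the control range. A dimmer probe set, at 27.8 and 32.1 against 18.2 and 32.7, had pool 1 below and pool 2 just above the controls.

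Of the 8 clients in DNA repair and replication, only Ddx11 separated the diets, and their median difference was -0.19. Ddx11, a helicase for sister chromatid cohesion, read 311.6 and 293.4 under the control diet and 207.5 and 289.0 under iron deficiency (-0.30 ± 0.34). Pool 2 lay just below the controls, and in another probe set (152.2 and 278.1 against 272.0 and 202.7) it was above them. Pold1, the catalytic subunit of DNA polymerase delta, read 957.8 and 928.4 under the control diet and 939.3 and 1492.4 under iron deficiency, so only pool 2 was high (0.33 ± 0.37). Its other probe set, with 240.8 and 246.7 against 142.9 and 348.0, had pool 2 above and pool 1 below the controls. Prim2, the large subunit of primase, was at 786.1 and 800.6 against 697.6 and 854.9 (-0.04 ± 0.32). Pool 1 was below and pool 2 above the controls. The repair helicase Ercc2 differed by -0.18 ± 0.50, the Fanconi helicase Brip1 by -0.21 ± 0.33 and the telomere helicase Rtel1 by -0.29 ± 0.41. The glycosylases Nthl1 and Mutyh, which cut out oxidised or mispaired bases, differed by -0.25 ± 0.44 and -0.18 ± 0.32. Ercc2 read 94.2 and 130.2 against 63.8 and 149.7, and Rtel1 317.9 and 282.8 against 181.7 and 329.2. Nthl1 read 154.5 and 139.6 against 86.5 and 177.0. For Ercc2, Prim2, Rtel1 and Nthl1, iron-deficient pool 1 was below and pool 2 above both controls.

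Abce1, which splits ribosomes after translation ends, read 2205.4 and 2905.9 under the control diet and 2799.2 and 2130.3 under iron deficiency (-0.05 ± 0.35). The diets overlapped. Cisd1 and Cisd2 carry their cluster on the outside of membranes, Cisd1 on mitochondria and Cisd2 mainly on the endoplasmic reticulum. Cisd2 read 657.9 and 616.9 under the control diet and 319.0 and 529.3 under iron deficiency, both below the controls (-0.63 ± 0.38, or -0.27 without iron-deficient pool 1). Its next probe set (228.7 and 198.3 against 79.6 and 156.0) was lower in both pools too. A dim one was high in pool 1 only, at 76.8, where the other pools read 24.6 to 41.2. Cisd1 read 1844.0 and 2232.4 under the control diet and 1142.4 and 1957.5 under iron deficiency, with pool 2 inside the control range (-0.44 ± 0.40). Its next probe set was below both controls in both pools, at 460.5 and 1030.8 against 1083.0 and 1371.1.

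**Figure D3:**
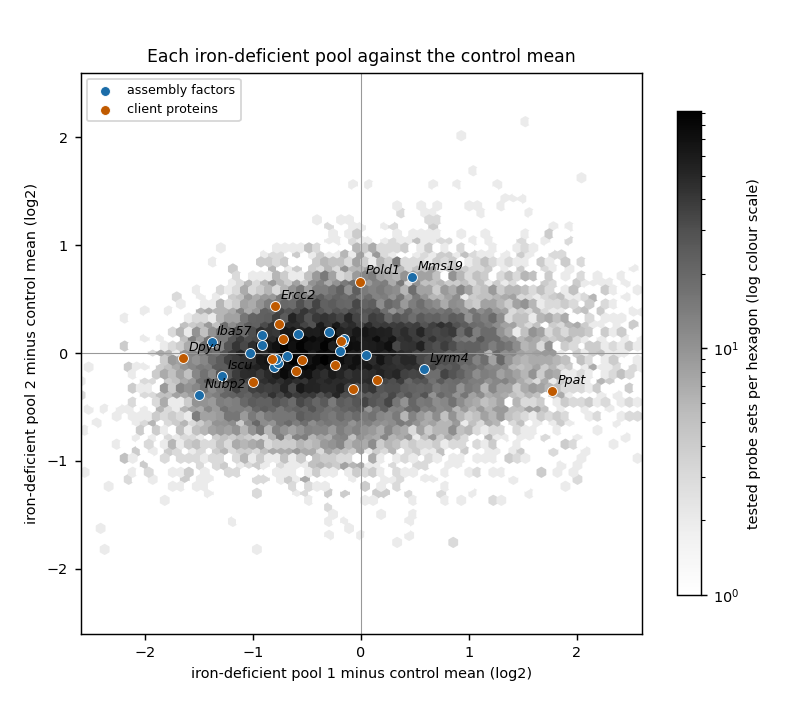
Log2 signal minus the control mean in iron-deficient pool 1 (horizontal) and pool 2 (vertical), for the assembly factors (blue) and clients (orange) over all 27022 probe sets tested (grey hexagons, log colour scale; the few beyond 2.6 units are not drawn). The members spread along the horizontal axis, from Dpyd at -1.65 to Ppat at 1.77, and stay between -0.39 and 0.70 on the vertical axis.

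Probe sets of one gene can meet different ends or forms of a transcript, and names that end in s_at or x_at mark probes shared between transcripts. Of 67 probe sets of the 32 genes, 56 were bright enough to be tested, and 19 genes had several. The probe sets differed in sign for 5 genes, Hspa9, Isca1, Pold1, Abce1 and Cisd2. The widest range was that of Cisd2, from -0.93 to 0.52, and the narrowest were those of Prim2, from -0.0388 to -0.0381, and Nubp2. The range was over 0.5 log2 units for Bola3 and Dpyd too, from -0.97 to -0.43 and from -0.85 to -0.29. The sign or size of the difference of these 7 genes therefore depends on the probe set read. Outside these 7, whether the diets overlapped changed with the probe set for Nfs1, Iba57, Nubp1, Mms19, Ddx11 and Cisd1. The choice of the brightest probe set was the same on the log2 and the linear scale for 32 of 32 genes.

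**Figure D4:**
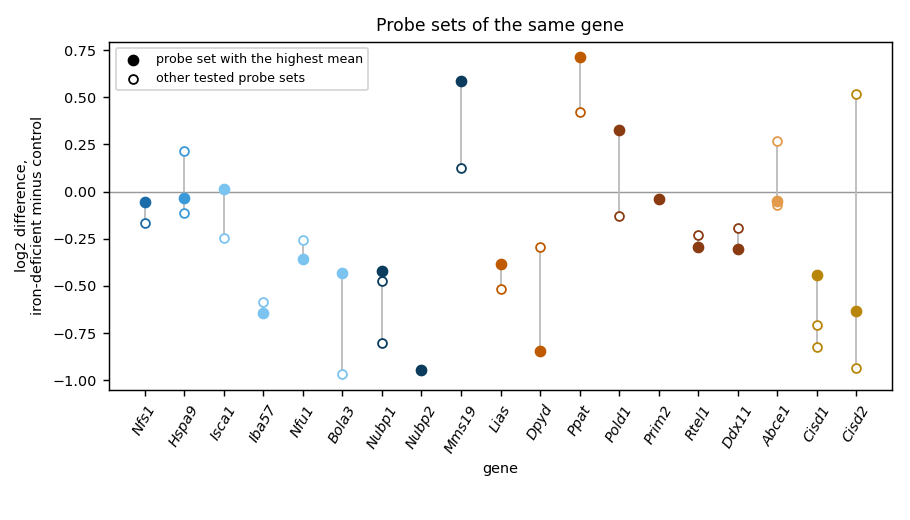
Log2 difference, iron-deficient minus control, for every tested probe set of the 19 members that have several (filled, the probe set with the highest mean; open, the others; lines join probe sets of 1 gene). For 14 genes all points lie on the same side of 0, and for 5 they lie on both sides.

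Other genes of the pathway were read from lists. Of 12 other assembly genes 9 were analysed and 8 bright enough to be tested, with a median difference of -0.05. By limma 0 passed, and both iron-deficient pools were lower for 1 and higher for 2. The lower one was Ciapin1, an electron carrier of the cytosolic machinery, at 602.1 and 623.1 under the control diet and 225.7 and 453.2 under iron deficiency (-0.94 ± 0.43). The higher ones were Bola2, a cytosolic cluster carrier, at 1435.4 and 1829.5 against 2923.4 and 2101.7 (0.61 ± 0.36), and Ciao2a (0.39 ± 0.34), a relative of Ciao2b. Slc25a28, an iron importer of mitochondria, differed by -0.60 ± 0.48 and was near the controls in pool 2.

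Of 26 other iron-sulfur proteins 24 were analysed and 22 tested. Both iron-deficient pools were lower for 7 and higher for 2, with a median of -0.23, and by limma 0 passed over all probe sets. At an unadjusted p under 0.05 lay 1, Cdkal1, which modifies transfer RNA, at 916.1 and 701.1 under the control diet and 2287.5 and 1378.0 under iron deficiency (1.15 ± 0.40; limma adjusted p = 0.852). Etfdh, which feeds electrons from fat breakdown into the respiratory chain, differed by -0.64 ± 0.41. Dph2, which helps make diphthamide, and Fech, which closes haem synthesis, differed by -0.92 ± 0.60 and -0.43 ± 0.34. Etfdh, Dph2 and Fech were below both controls in both iron-deficient pools. The other gene above both controls was Ndufs7 (0.26 ± 0.32), a subunit of respiratory complex I.

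Partners that carry no cluster were read too. Of 9 lipoate enzymes and carriers, 9 differences were negative, with a median of -0.38, and both iron-deficient pools were lower for 4. Over all genes at 1 probe set each, 62% were negative and both pools were lower for 26% and higher for 13.1%, which also stand beside the counts of the other lists. The 4 were Pdhx, Dld, Dbt and Gcsh, of which Pdhx and Dld, parts of the lipoate-using dehydrogenases, differed by -0.53 ± 0.33 and -0.60 ± 0.37. Dbt and Ogdh differed by -0.39 ± 0.37 and -0.43 ± 0.45. None of the 9 chaperone and protease partners of Hspa9 separated the diets, at a median of -0.09. The smallest p-values were those of Dnaja3, a co-chaperone, at 0.53 ± 0.44, and Hspe1, a chaperonin, at 0.40 ± 0.38, while the exchange factors Grpel2 and Grpel1 differed by -0.36 ± 0.41 and -0.18 ± 0.36. Of 24 tested partners of the DNA clients, both pools were lower for 6 and higher for 2, with a median of -0.20. The helicase subunits Mcm3 and Mcm2 differed by 0.57 ± 0.33 and -0.65 ± 0.42, where probe sets of Mcm3 differed in sign, and the repair and transcription factor subunits Cdk7 and Ercc3 by 0.65 ± 0.43 and -0.57 ± 0.40. By limma 0 of these 42 genes passed, adjusted or unadjusted. Proliferation markers summed to 11544 to 12839 in control and 13630 to 13748 in iron-deficient pools.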

How the data were processed

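The series holds 4 arrays, 1 per pool of embryonic kidneys, grouped and numbered as the labels give them. The deposited values are intensity values on a linear scale, 1 per probe set, and each array had been scaled to the same trimmed mean of 250.0 (2% of probe sets trimmed on each side). RMA is named in the submitters' processing notes, yet the values are neither logarithmic nor equal in distribution, and the sources used here do not give the software behind them.

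Zeros were set to 0.1 and log2 was taken. The 64 control probe sets and the lowest 40% of the other 45037 by mean log2 signal (limit 17.3) were left out. Differences were fitted with limma 3.58.1 in R 4.3.3 (lmFit and eBayes, two-sided, diet as the only term, 2 residual and 3.49 prior degrees of freedom), with Benjamini-Hochberg adjustment over 27022 probe sets, which cover 12997 genes. Values after ± give the standard error of a log2 difference, and intervals are 95% limma intervals. Background on an array is the highest of 27 control probe sets for bacterial RNA (8.5, 8.2, 14.4 and 13.3 in control pools 1 and 2 and iron-deficient pools 1 and 2). The procedure was tested on simulated data in which a probe set had the same spread on all arrays. That test does not cover the wider spread between the iron-deficient pools.

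Symbols come from the platform annotation, where 34945 probe sets have 1 symbol, 932 several and 9160 none. The text names all members, up to 4 genes of each other list by smallest p, and a few more where a count of 5 or fewer called for them. The members and lists were chosen with earlier results of these data known. Alternatives were other filters, scalings, an offset, moderation settings, array weights, the pool number as a block, leaving out each pool, 1 or the mean of the probe sets per gene, and a looser threshold.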

Additional observations from a re-analysis of the deposited data

Results flagged for a closer look

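Control probe sets for mouse transcripts were not part of the comparison, and 6 of their readings exceeded 2 times the higher control pool. In iron-deficient pool 1 the 18S ribosomal RNA sets read 2144.5 at the 5′ part (291.9 and 289.4 in control pools) and 595.7 at the 3′ part (171.8 and 140.5). The sets for the transferrin receptor read 303.1 and 117.1 at the 3′ part in iron-deficient pools 1 and 2 (54.0 and 48.4 in control pools), and 84.9 and 83.8 in the middle (33.4 and 34.0).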

How the results depend on the processing

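No member passed an adjusted p of 0.05 by limma under any alternative in which members were read. Members were not read from the run with 1 probe set per gene, and Iba57 and Dpyd were not tested with the lowest 60% left out. At an unadjusted p under 0.05 lay 1 member after quantile normalization (Mms19) and 1 with the replicate number as a block (Nubp2), and 0 to 17 with each pool left out. The 17, without iron-deficient pool 2, stand beside 39% of all probe sets, and the 2 without pool 1 (Mms19 and Pold1) beside 10.4%. Over all probe sets, 201 passed the adjusted threshold after median centring, 479 with the replicate block, 13 with 1 probe set per gene and 0 to 64 with each pool left out (64 without control pool 1, 21 without control pool 2). Unadjusted, the counts were 2039 with no filter, 709 with the lowest 60% left out (more and fewer probe sets tested), 2343 with the replicate block and 291 to 10536 with each pool left out. The block's pairing is only a shared number: same-numbered pools deviated together with r = 0.357 over probe sets, and with 2 pairs nothing more can be said. Both iron-deficient pools were lower for 1 member after median centring (Brip1, with none of the 6 kept), and for 10 to 24 with a pool left out. They were higher for 2 after quantile normalization (Mms19 and Pold1), and for 2 to 10 with a pool left out. Each such run leaves 1 diet with a single pool. In these runs 55.0% to 87.6% of all probe sets separated the diets, in either direction. The count of 24 and the share of 87.6% came from the same run, where the second iron-deficient array was dropped. The client median was -0.57 to -0.0585 and that of the assembly factors -0.73 to 0.01 with each pool left out.

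Mms19 was positive in every alternative run in which it was read. Negative in every run that read them were Iscu, Glrx5, Nfu1, Bola3, Nubp1, Nubp2, Ciao3, Lias, Dpyd, Brip1, Ddx11, Mutyh, Cisd1 and Cisd2. The other 17 members turned sign in at least 1 run. The other filters, the moderation settings, the array weights and the block left each log2 difference unchanged. A sign could therefore turn only in the remaining runs, and the share of all probe sets that kept their sign was not counted. After quantile normalization Nfs1 was 0.14, Lyrm4 -0.0437, Isca1 -0.0223 and Prim2 0.0409. Isca1 was -0.0005 after median centring. With the mean of a gene's probe sets Hspa9 was 0.0241, Isca1 -0.12 and Abce1 0.0476. With each pool left out the values ran from -0.30 to 0.19 for Nfs1, -0.15 to 0.58 for Lyrm4, -0.92 to 0.0744 for Fdx1, -0.59 to 0.17 for Hscb, -0.18 to 0.12 for Hspa9, -0.0696 to 0.0914 for Isca1, -0.20 to 0.0163 for Isca2, -1.39 to 0.10 for Iba57, -0.92 to 0.17 for Ciao1, -0.23 to 0.21 for Ciao2b, -0.35 to 1.77 for Ppat, -0.80 to 0.43 for Ercc2, -0.0056 to 0.66 for Pold1, -0.19 to 0.11 for Prim2, -0.72 to 0.13 for Rtel1, -0.76 to 0.27 for Nthl1 and -0.25 to 0.15 for Abce1. The cause of these turns was not tested.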

Other observations

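Purine synthesis was read beside Ppat, its first enzyme and an iron-sulfur protein, a choice made after the values of Ppat were seen. The path has 6 enzymes with Ppat, which were not all high in iron-deficient pool 1. Paics, whose annotated span touches that of Ppat on the same chromosome, read 2332.4 and 2174.8 under the control diet and 2134.9 and 2746.3 under iron deficiency (0.10 ± 0.33, SE of a log2 difference). Pfas alone was high in pool 1 with Ppat, at 1612.5, where the other pools read 629.0 to 731.6. By their brightest probe sets, Gart, Adsl, Atic and Paics were below both controls in that pool, at 559.7, 467.0, 710.6 and 2134.9. In iron-deficient pool 2, Gart, Adsl and Atic read 781.4, 1047.0 and 1301.8, against 803.7 and 813.6, 1044.4 and 1170.9, and 1155.8 and 989.1 in the control pools. Another probe set of Atic read 393.2 and 346.7 against 386.8 and 141.0 under iron deficiency, so that pool 2 was the low one. None of the 6 passed by limma (adjusted p from 0.852 to 0.936).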
